A study of Arabidopsis thaliana with 6 samples.

Results

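Described here are 9 genes of the Arabidopsis thaliana circadian clock, taken from 32833 loci of the count tables by their locus identifiers. They are the 5 clock pseudo-response regulators PRR9 (AT2G46790), PRR7 (AT5G02810), PRR5 (AT5G24470), PRR3 (AT5G60100) and TOC1 (AT5G61380), and the 4 evening complex genes ELF3 (AT2G25930), ELF4 (AT2G40080), LUX (AT3G46640) and BOA (AT5G59570). All 9 were found in each table, and all 9 passed the filter on low counts that left 19719 genes to test. RNA came from inflorescence meristems, dissected from 15 cm tall stems of plants in long days, with older flower primordia removed. The control group holds 3 libraries of the line pCLV3>>erTurquoise, in which the stem-cell promoter CLV3 drives a fluorescent reporter. The other group holds 3 libraries of the line pCLV3>>erTurquoise, >>VGD1, which in addition can express VGD1, a pectin methylesterase of the cell wall. Both groups carry the GR-LhG4 driver and both were treated with dexamethasone at staggered times. The labels disagree on the dose (30 µM or 30 mM) and on the time to harvest (48 or 72 hours). The hour of day at harvest, which bears on any clock gene, is not given in the labels, and neither is the number of independent lines or of pooled plants.

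The plant clock is a loop of transcription factors that repress each other in turn through the day. The PRR proteins repress the morning genes CCA1 and LHY, and their RNAs are known to peak one after another from dawn to dusk in the order PRR9, PRR7, PRR5, PRR3 and TOC1. ELF3, ELF4 and LUX form the evening complex, which represses PRR9, among other genes, in the night. Outputs of this clock include growth, flowering time and cold responses.

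Totals ran from 6638772 counts in control replicate 3 to 24437872 counts, and the next lowest library held 18432365. A count of 0 would allow 3 counts, or 0.452 CPM (here the count scaled to its library's total) in the shallowest library and at most 0.163 CPM in the others, covering counting error only. Gene levels in CPM were in addition scaled with the TMM factors of edgeR, so they and this floor are not on quite the same scale. VGD1 itself stood at 11.4, 12.7 and 4.80 CPM in the controls and at 6.59, 7.92 and 7.11 CPM in the other group, so its RNA does not tell the groups apart (edgeR adjusted p = 0.372). Libraries of the second group are therefore named by their label, as libraries labelled VGD1. Of the 7 meristem genes used to check the tissue, STM stood between 60.3 and 90.5 CPM in all 6 libraries. The stem-cell gene CLV3, too low to be tested, had no count in any control library. In the other group CLV3 had 3, 8 and 11 counts (0.150, 0.417 and 0.593 CPM). The 6 tested meristem genes had log2 fold changes from -0.35 to 0.67, 2 below 0 and 4 above, and 0 were called in edgeR. Groups did not overlap in 3 of these 6, all higher, against 17.2% of all tested genes in either direction. The labels do not say whether replicates came from separate batches of plants, so the p-values rest on library-to-library spread that may be technical.

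Promoter sequences are shown first because several of these genes are known to be controlled through the evening element, the motif AAAATATCT. Reading the TAIR10.1 genome from RefSeq on both strands, the element lay between 250 bases before and 50 bases after the annotated start in 5 of the 9 genes (PRR5, PRR9, TOC1, LUX and BOA), as it did in 2.82% of 27443 protein-coding genes. With 1000 bases before the start it was found in 6 of the 9, ELF4 being added, and in 7.65% of all genes. The 8 sites follow, each read in the direction of the element with 10 bases on either side, the element in capitals. The number after the gene name is the position of the element's first base on the gene's strand, with the annotated start as 1, and the strand is that on which the site is read.
TOC1, -151, chr5:24674802-24674830, minus strand: catcttggagAAAATATCTcatgatattt
PRR5, -716, chr5:8359244-8359272, plus strand: ccaaacccaaAAAATATCTaatgctagtg
PRR5, -292, chr5:8358820-8358848, plus strand: tggatttgaaAAAATATCTagtagaattg
PRR5, -187, chr5:8358715-8358743, plus strand: tggagaaaagAAAATATCTagaaaaaatc
PRR9, 27, chr2:19232623-19232651, minus strand: cacaaccacgAAAATATCTtctcagagaa
ELF4, -536, chr2:16735471-16735499, minus strand: atactacaaaAAAATATCTtgcggattat
LUX, -53, chr3:17182979-17183007, plus strand: tagaagatctAAAATATCTagctaactcg
BOA, -43, chr5:24003835-24003863, minus strand: tagataatctAAAATATCTtttacccgca
PRR5 held 3 of the 8 sites, and the single PRR9 site lay just after the annotated start. Positions and windows rest on the annotated starts, and whether these are the starts used in the plants was not checked. PRR7, PRR3 and ELF3 had no match to these letters in either window. Of the 6 genes with a site, PRR5 and PRR9 fell. ELF4 and LUX had lower values without passing the edgeR test. TOC1 and BOA lay above 0 (log2 fold change 0.60 and 0.06) and did not pass it. The genes without a site did not pass it either, at -0.07 for PRR7, -0.09 for PRR3 and -0.15 for ELF3. A link between sites and levels was not tested.

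The 250 bases before the start are given for PRR5 and PRR9, the pair that fell in the libraries labelled VGD1. Capitals mark the matches to any of the motifs searched: AAAATATCT, AAAAATCT (a CCA1 binding site), CACGTG (the G-box), GATTCG and GATACG (LUX binding sites) and CCACAC (a morning element), on both strands.
PRR5, chr5:8358547-8358796, minus strand: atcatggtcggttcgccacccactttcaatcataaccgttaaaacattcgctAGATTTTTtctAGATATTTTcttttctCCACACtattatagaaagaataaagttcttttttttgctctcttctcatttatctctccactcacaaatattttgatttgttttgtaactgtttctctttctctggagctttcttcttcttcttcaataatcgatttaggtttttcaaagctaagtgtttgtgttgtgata
PRR9, chr2:19232357-19232606, plus strand: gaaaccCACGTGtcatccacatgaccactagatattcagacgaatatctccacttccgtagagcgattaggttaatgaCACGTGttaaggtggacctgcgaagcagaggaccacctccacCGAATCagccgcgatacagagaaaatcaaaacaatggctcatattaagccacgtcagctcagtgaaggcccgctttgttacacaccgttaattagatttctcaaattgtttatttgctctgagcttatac
The PRR5 window held, in order, 1 CCA1 binding site, 1 evening element (both on the opposite strand) and 1 CCACAC. The PRR9 window held 2 G-boxes and 1 GATTCG on the opposite strand. G-boxes were also present upstream of PRR7, LUX and BOA, making 4 of 9 genes against 7.68% of all, and GATACG upstream of ELF3 and ELF4, 2 of 9 against 5.54%. The share of all genes was 7.88% for AAAAATCT, 9.58% for GATTCG and 7.77% for CCACAC, and each of these was found in 1 of the 9 genes. No matches shared a base in these windows. These matches are descriptions of the reference sequence and were not measured in the plants.

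PRR5 and PRR9 were lower in the libraries labelled VGD1, while PRR7, PRR3 and TOC1 did not pass the test. Among the evening complex genes the values of ELF4 and LUX were lower in all libraries labelled VGD1 without passing the test. For LUX this did not hold with library totals alone as the scaling. At an adjusted p of 0.05 in the edgeR quasi-likelihood test, 2 of the 9 genes were lower, against 0.314% of all tested genes (62), and 0 were higher, against 0.101% (20). With library totals alone as the scaling, the counts over all genes were 56 lower and 30 higher. Of the 9 genes, 4 were lower and 0 higher at an unadjusted p of 0.05, against 8.36% and 5.22% of all tested genes. DESeq2 called 3 lower and 0 higher, against 1.52% and 0.709% of 19335 genes. The median log2 fold change was -0.15 over the 9 genes and -0.0004 over all tested genes, and 7 of the 9 lay below 0. In 4 genes (PRR5, PRR9, ELF4 and LUX) all libraries labelled VGD1 lay below all controls after scaling with TMM factors, as in 9.02% of tested genes. LUX overlapped when libraries were scaled by their totals alone. Groups did not overlap in either direction in 17.2% of tested genes.

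**Figure D1:**
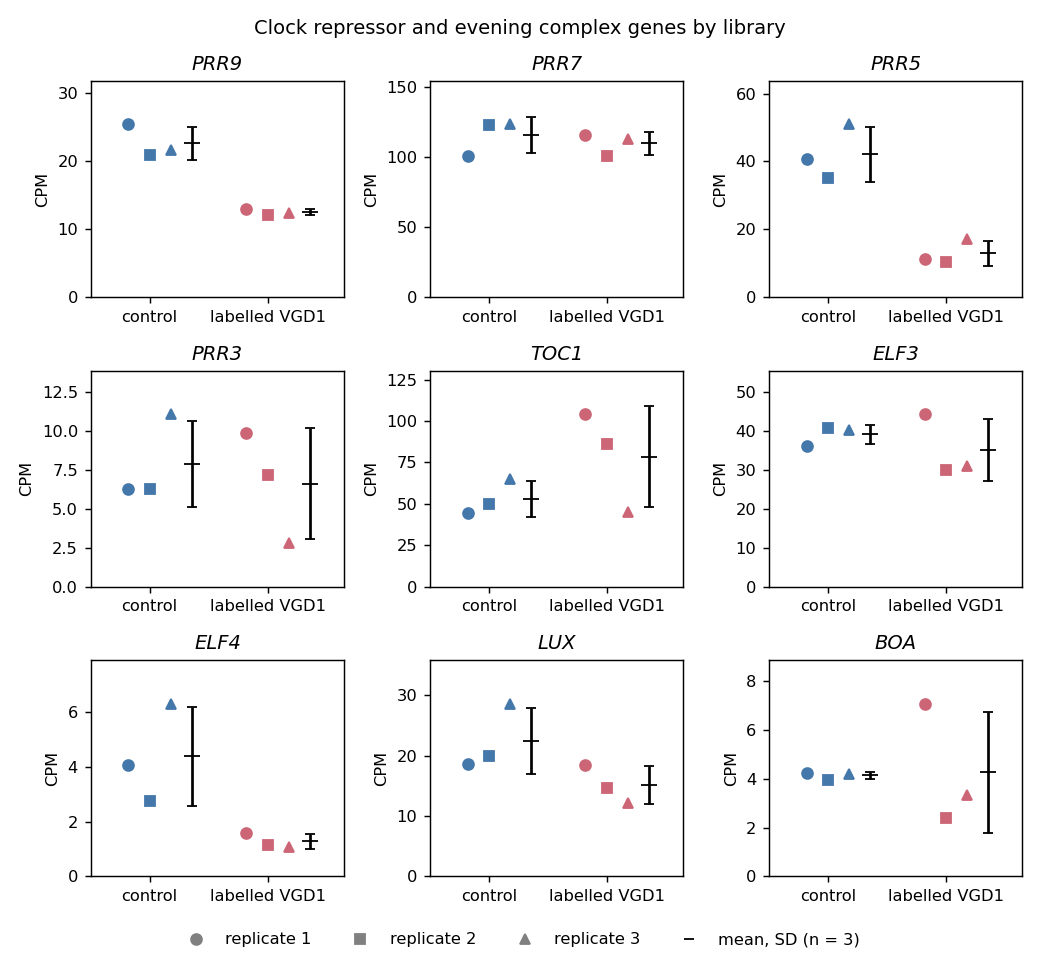
RNA level of each of the 9 genes by library, in CPM with TMM factors on a linear axis from 0, for 3 control libraries (blue) and 3 libraries labelled VGD1 (red), with mean and SD. The PRR5 values of 11.2, 10.5 and 17.1 CPM in the libraries labelled VGD1 lie below the lowest control at 35.0 CPM, while PRR7 values of both groups lie between 101 and 124 CPM.

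PRR9, the first of the series to peak after dawn, stood at 25.4, 21.0 and 21.6 CPM in control replicates 1 to 3 and at 13.0, 12.1 and 12.4 CPM in the libraries labelled VGD1. The groups were well apart and the libraries labelled VGD1 almost coincided. The means were 22.7 ± 2.42 and 12.5 ± 0.46 CPM (SD, n = 3 each). The fitted log2 fold change was -0.87 (SE 0.13, 95% interval -1.15 to -0.58), with an edgeR adjusted p of 0.0287.

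PRR5, which represses CCA1 and LHY in the afternoon and also restrains growth genes, stood at 40.6, 35.0 and 51.0 CPM in the controls. In the libraries labelled VGD1 it stood at 11.2, 10.5 and 17.1 CPM. The highest library labelled VGD1, replicate 3, lay well below the lowest control, replicate 2. The fitted log2 fold change was -1.68 (SE 0.20, 95% interval -2.13 to -1.22), a 3.19-fold lower level with an edgeR adjusted p of 0.0232.

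PRR7, the close relative of PRR9 that peaks in the morning to midday, stood between 101 and 124 CPM in all 6 libraries. Its log2 fold change was -0.07 (95% interval -0.30 to 0.16, edgeR adjusted p = 0.834), so the interval allows at most a fold of 0.811 downward and 1.12 upward. PRR3, which is known to protect the TOC1 protein from degradation, was the least abundant PRR in CPM per kilobase of exon. It stood at 6.29, 6.29 and 11.1 CPM in the controls and at 9.89, 7.19 and 2.80 CPM in the libraries labelled VGD1, with overlapping groups. The log2 fold change had a wide interval, -1.05 to 0.86 (edgeR adjusted p = 0.952).

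TOC1, the founding member of the family and a dusk repressor of CCA1, had 44.2, 49.8 and 64.8 CPM in the controls. In replicates 1 and 2 labelled VGD1 it had 104 and 86.0 CPM, above every control, but in replicate 3 it had 45.2 CPM, inside the control range. The log2 fold change was 0.60 (SE 0.32, 95% interval -0.18 to 1.38, edgeR adjusted p = 0.491). With 1 library left out it ran from 0.35 without replicate 1 labelled VGD1 (adjusted p = 0.714) to 0.87 without replicate 3 (adjusted p = 0.0932).

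**Figure D2:**
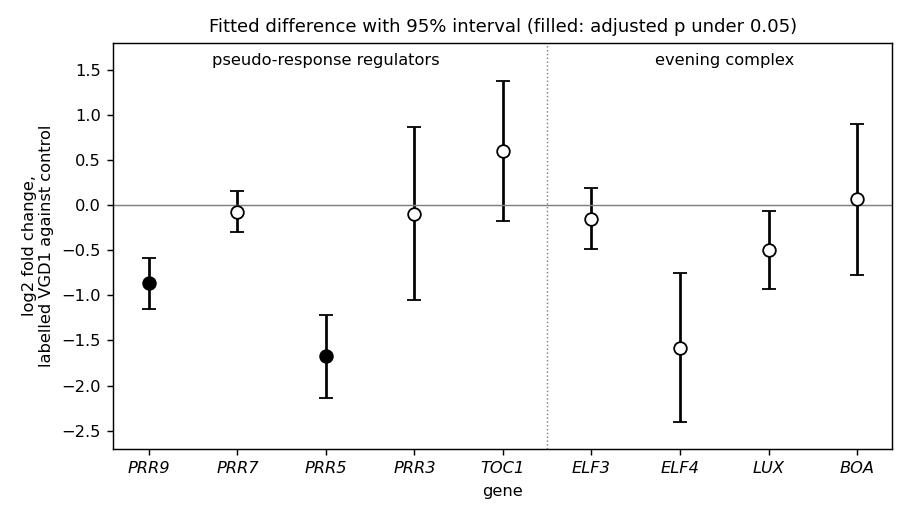
Fitted log2 fold change of the libraries labelled VGD1 against control for each gene, with the 95% interval from the edgeR fit, pseudo-response regulators on the left in their known order of peak time. PRR9 at -0.87 and PRR5 at -1.68 have filled symbols (adjusted p under 0.05), and the interval of PRR7, which stands between them in that order, spans 0.

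Of the evening complex genes, ELF4, a small protein that acts through ELF3, stood at 4.08, 2.73 and 6.30 CPM in the controls (92, 66 and 42 counts). The libraries labelled VGD1 had 1.60, 1.15 and 1.08 CPM (32, 22 and 20 counts). The groups did not overlap, although the highest control was 2.30 times the lowest. The log2 fold change was -1.58 (SE 0.37, 95% interval -2.40 to -0.76), close to that of PRR5 in size, with an edgeR adjusted p of 0.113. DESeq2 gave ELF4 an adjusted p of 0.00578 and called it together with PRR5 and PRR9.

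LUX, the DNA-binding protein of the complex, stood at 18.7, 19.9 and 28.6 CPM in the controls and at 18.5, 14.7 and 12.2 CPM in the libraries labelled VGD1. Replicate 1 labelled VGD1 and control replicate 1 were nearly equal, so with TMM factors the groups were separated by a narrow gap. By library totals alone (371 of 19341479 counts against 422 of 23210554) the order of these libraries turned and the groups overlapped. Its log2 fold change was -0.50 (95% interval -0.93 to -0.06, edgeR adjusted p = 0.304). BOA, a homologue of LUX, stood at 4.25, 3.98 and 4.20 CPM in the controls and at 7.09, 2.40 and 3.34 CPM in the libraries labelled VGD1, so the second group lay on both sides of the controls (log2 fold change 0.06, edgeR adjusted p = 0.964).

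ELF3, the scaffold that joins ELF4 to LUX, stood between 36.2 and 40.7 CPM in the controls. It stood at 44.4, 29.9 and 31.0 CPM in the libraries labelled VGD1, on both sides of the controls (log2 fold change -0.15, 95% interval -0.49 to 0.19, edgeR adjusted p = 0.735). In the annotation, genes on the opposite strand run into ELF3, LUX and BOA. Whether counting used strand is not known here, so reads from the stretches shared with their partners cannot be assigned to either gene. Of the genes named below, LNK2, PRR8, FKF1 and RVE1 also have such an overlap. No overlap was annotated for ELF4 or for any of the 5 PRR genes.

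The calls on PRR5 and PRR9 depended on single libraries, as did the number of genes called over all genes. PRR5 lost its call without control replicate 1 (edgeR adjusted p = 0.0838) or control replicate 2 (0.0588). PRR9 lost its call without control replicate 1 (0.155), control replicate 2 (0.131), replicate 2 labelled VGD1 (0.0646) or replicate 3 labelled VGD1 (0.0766), and with all libraries thinned to the depth of the shallowest (0.165). Over these 6 fits with 1 library left out, the log2 fold change stayed between -1.93 and -1.53 for PRR5 and between -0.94 and -0.75 for PRR9. Without control replicate 3, the shallowest library, both were called (0.0199 for PRR5 and 0.0291 for PRR9). Over all genes 82 were called with all libraries, and 12, 4 and 189 without control replicates 1, 2 and 3. Without replicates 1, 2 and 3 labelled VGD1 the totals were 201, 80 and 45. The unadjusted edgeR p of PRR5 was 1.76e-05 with all libraries, 0.000117 without control replicate 1 and 2.74e-05 without control replicate 2.

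**Figure D3:**
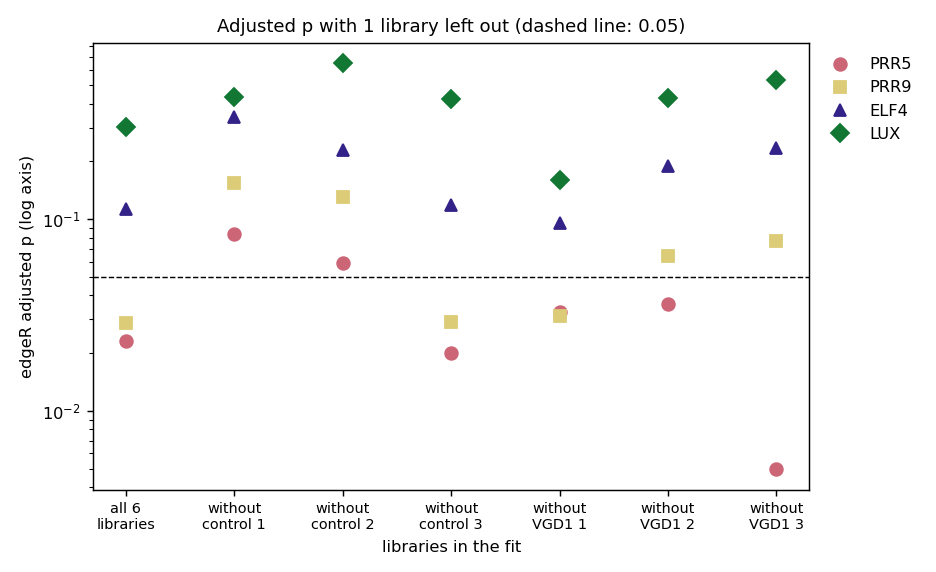
edgeR adjusted p on a log axis for PRR5, PRR9, ELF4 and LUX with all 6 libraries and with each library left out in turn, the dashed line at 0.05. PRR5 lies under the line in 4 of the 6 reduced fits and PRR9 in 2, while ELF4 (0.0951 to 0.343) and LUX (0.159 to 0.652) lie above it in all 6.

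Levels of different genes were compared per kilobase of annotated exon. That length was 1677 bases for PRR5, 2808 for TOC1 and 3233 for PRR7. Whether each annotated transcript is complete was not checked. A length that is too short would raise a gene's place in the order, its share and its ratios to other genes. In the controls the order was PRR7 (35.9 ± 3.94 CPM per kb, SD, n = 3), PRR5 (25.2 ± 4.84), TOC1 (18.9 ± 3.78), ELF3 (14.2 ± 0.90), PRR9 (10.6 ± 1.13), ELF4 (7.06 ± 2.91), LUX (5.72 ± 1.39), PRR3 (2.81 ± 0.99) and BOA (1.13 ± 0.04). Ranges of neighbours overlapped for PRR5 with TOC1, for PRR9 with ELF4 and for ELF4 with LUX, so those neighbours did not differ beyond their spread. In the libraries labelled VGD1 the order began with PRR7 (34.0 ± 2.54 CPM per kb), TOC1 (28.0 ± 10.8), ELF3 (12.8 ± 2.92) and PRR5 (7.71 ± 2.16). There PRR7 overlapped TOC1 and TOC1 overlapped ELF3, whereas PRR5 lay below ELF3 in every library. PRR9 (5.84 ± 0.21) lay between PRR5 and LUX (3.87 ± 0.81) without overlap, and at the low end LUX overlapped PRR3, PRR3 overlapped ELF4 and ELF4 overlapped BOA.

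PRR5 was 28.4%, 23.5% and 28.8% of the summed CPM per kb of the 5 PRR genes in the controls and 7.50%, 8.19% and 15.0% in the libraries labelled VGD1. TOC1 was 18.4%, 20.0% and 21.8% in the controls, 41.6% and 40.2% in replicates 1 and 2 labelled VGD1 and 23.6% in replicate 3. PRR7 was the largest share in 5 of the 6 libraries, TOC1 being ahead of it in replicate 1 labelled VGD1. Shares within a library do not depend on how libraries are scaled.

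**Figure D4:**
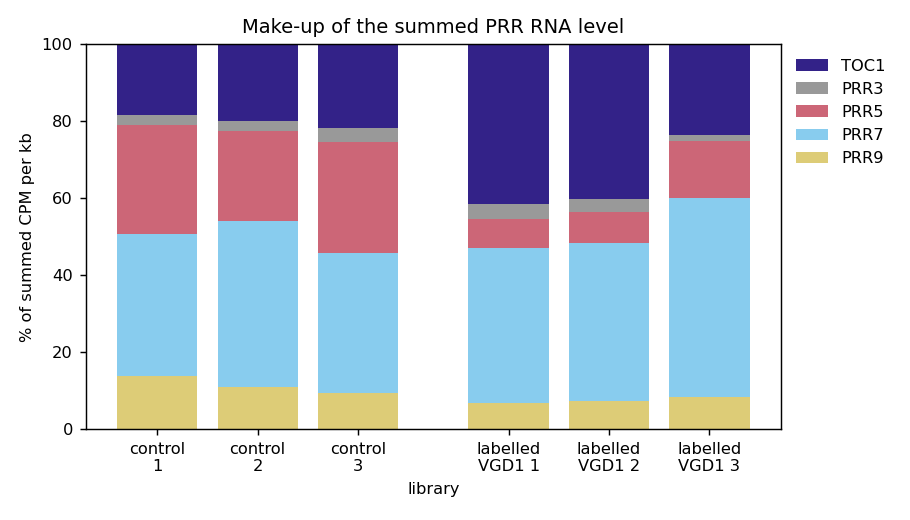
Share of each of the 5 pseudo-response regulator genes in their summed CPM per kb, stacked for each library. The PRR5 share lies between 23.5% and 28.8% in the controls and between 7.50% and 15.0% in the libraries labelled VGD1, and the TOC1 share of replicate 3 labelled VGD1 is nearer to the controls than to replicates 1 and 2.

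Ratios between genes of 1 library are likewise free of scaling, and 7 were computed. The PRR5 to PRR7 ratio, per kb, was 0.773, 0.549 and 0.796 in the controls and 0.187, 0.201 and 0.291 in the libraries labelled VGD1, with no overlap. For PRR9 to PRR7 it was 0.380, 0.257 and 0.264 against 0.169, 0.181 and 0.165, and for ELF4 to ELF3 it was 0.500, 0.298 and 0.693 against 0.160, 0.170 and 0.154. The TOC1 to PRR5 ratio was 0.651, 0.850 and 0.759 in the controls and 5.54, 4.91 and 1.58 in the libraries labelled VGD1. In each of these 4 ratios the two-sided exact permutation test gave p = 0.1, the smallest that 3 against 3 libraries allow, so none can reach 0.05 (Benjamini-Hochberg adjusted p = 0.175 over the 7 ratios). TOC1 to PRR7 overlapped between groups, with 0.460 in replicate 3 labelled VGD1 under every control value (exact permutation p = 0.4). For LUX to ELF3 the exact permutation p was 0.2 and for BOA to LUX it was 0.4.

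The genes differed in how much the 3 libraries of a group spread. In the libraries labelled VGD1 the range of log2 CPM was 0.10 for PRR9, smaller than for all but 9.35% of tested genes, and 0.21 for PRR7. It was 1.78 for PRR3, 1.52 for BOA and 1.20 for TOC1, against a median of 0.32 over all tested genes. In the controls the widest range was that of ELF4 at 1.17, and BOA, at 0.095, had the narrowest, against a median of 0.30. PRR3 and TOC1 both had their lowest value of the second group in replicate 3 labelled VGD1, whereas PRR5 had its highest there.

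Other clock genes were read from the same fit, in lists described by counts alone. Of 14 morning MYB and LNK genes, which include CCA1 and LHY, 0 were called in edgeR, DESeq2 or limma-voom, with 0 lower and 2 higher at an unadjusted p of 0.05, against 8.36% and 5.22% of all tested genes (median log2 fold change 0.26, 13 of 14 above 0). LNK2, a coactivator that works with the RVE proteins, stood at 215 ± 20.6 and 286 ± 39.9 CPM (edgeR adjusted p = 0.182) without overlap. RVE7, a MYB-related gene, had mean levels of 17.6 ± 1.38 and 21.8 ± 2.48 CPM, with an edgeR adjusted p of 0.359. CCA1 and LHY overlapped widely between groups, with LHY between 135 and 277 CPM in the controls and between 149 and 307 CPM in the libraries labelled VGD1.

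Among 9 genes of the GI, ZTL and photoperiod list, 1 was lower and 0 higher in edgeR (median log2 fold change 0.04). The shares of all tested genes were 0.314% and 0.101%. At an unadjusted edgeR p of 0.05, 2 were lower and 0 higher, against 8.36% and 5.22% of all tested genes. FKF1 encodes a blue-light receptor that times flowering. Control libraries held it at 19.1, 16.5 and 27.9 CPM, and the libraries labelled VGD1 at 4.35, 4.17 and 2.80 CPM (edgeR adjusted p = 0.00537). The call stood in each of the 6 fits that left out 1 library. A gene on the opposite strand overlaps it. GI, which acts with FKF1 and ZTL, stood at 60.1, 70.5 and 88.8 CPM in the controls and at 52.3, 46.7 and 56.1 CPM in the libraries labelled VGD1 without passing the test (edgeR adjusted p = 0.193). ZTL, the F-box gene whose protein targets TOC1 and PRR5 proteins for degradation, lay between 62.5 and 85.9 CPM in all libraries.

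Of 12 ELF4-like and accessory clock genes, 11 were tested and 0 were called in edgeR, DESeq2 or limma-voom (median log2 fold change 0.11). At an unadjusted edgeR p of 0.05, 0 were lower and 1 higher, against 8.36% and 5.22% of all tested genes. JMJ30, a histone demethylase gene with an evening rhythm, stood at 6.78, 8.32 and 10.3 CPM in the controls and at 39.1, 30.9 and 7.33 CPM in the libraries labelled VGD1 (edgeR adjusted p = 0.334). Its replicate 3 lay in the control range, as that of TOC1 did. COR27, a cold- and clock-regulated gene named here after its values were seen, showed 15.2, 10.9 and 0.755 CPM in the libraries labelled VGD1 against 4.39 to 4.96 CPM in the controls. TIC, a clock regulator, averaged 332 CPM in control and 359 CPM in the other group, with an edgeR adjusted p of 0.642.

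Of 7 clock output genes 1 was lower and 0 higher in edgeR, against 0.314% and 0.101% of all tested genes (median log2 fold change -0.14). At an unadjusted edgeR p of 0.05, 3 were lower and 0 higher, against 8.36% and 5.22%. GRP7, an RNA-binding protein gene that cycles with an evening peak, stood at 836, 898 and 1414 CPM in the controls and at 436, 396 and 384 CPM in the libraries labelled VGD1 (edgeR adjusted p = 0.0346). Its adjusted p was 0.0513 when libraries were scaled by their totals alone, 0.116 without control replicate 2, and between 0.0599 and 0.0931 when any 1 library labelled VGD1 was left out, so the call was lost in each of these. DESeq2 also called its relative GRP8 lower. The pseudo-response regulators outside the clock gave no call in edgeR, DESeq2 or limma-voom among 3 tested of 4. At an unadjusted edgeR p of 0.05, 1 was lower and 2 were higher, against 8.36% and 5.22% of all tested genes. PRR4 ranged from 1.35 to 1.70 CPM in the controls and from 0.312 to 0.749 CPM in the libraries labelled VGD1 (edgeR adjusted p = 0.152). For PRR8 the means were 12.5 ± 1.81 and 16.1 ± 0.49 CPM (edgeR adjusted p = 0.294).

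**Figure D5:**
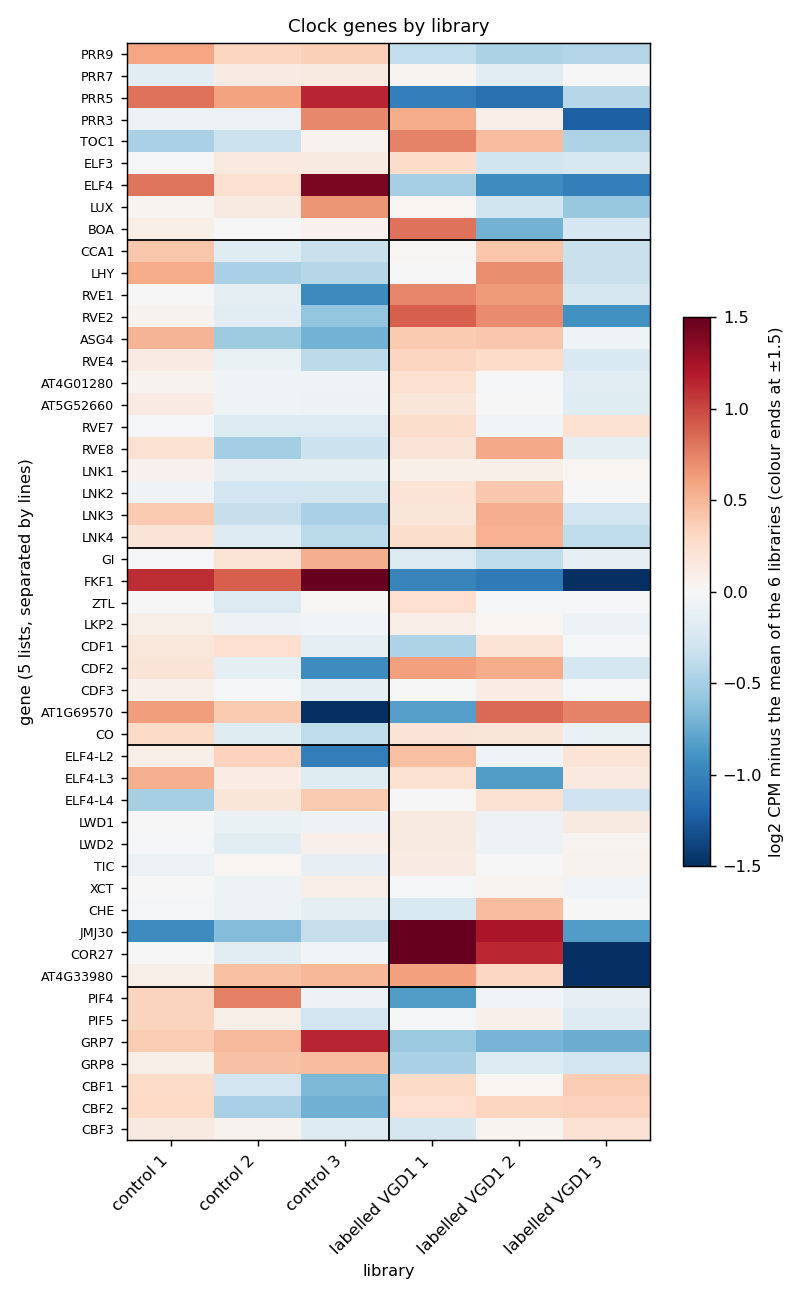
log2 CPM of 50 tested clock genes minus each gene's mean over the 6 libraries, in 5 lists separated by lines (the 9 PRR and evening complex genes first), with a colour scale that ends at ±1.5. PRR5, PRR9, ELF4, FKF1 and GRP7 are lower in all 3 libraries labelled VGD1. TOC1, JMJ30 and COR27 are high in replicates 1 and 2 labelled VGD1 but not in replicate 3, a split also seen in RVE1, RVE2 and CDF2.

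The genes whose pattern over the 6 libraries was most like that of PRR5, PRR9 and ELF4 were ranked among 15477 others with a mean of at least 5 CPM. The measure was the root mean square difference of log2 CPM after centring each gene on its mean, and, with 6 libraries in 2 groups, it is a description. For PRR5 they were PORB (0.24), COR15B (0.27), Fes1B (0.27), OEP6 (0.28) and RCI2A (0.30). PORB, a protochlorophyllide oxidoreductase gene of chlorophyll synthesis, stood at 341, 367 and 434 CPM in the controls and at 129, 105 and 231 CPM in the libraries labelled VGD1, with its highest value of that group in replicate 3 as for PRR5. For PRR9 the differences were smaller, with AT4G22755 (0.11), the boron channel gene NIP5;1 (0.11), CPUORF47 (0.12), AT2G34810 (0.12) and ESK1 (0.13). For ELF4 the nearest was GRP7 (0.27), and ACD32.1 (0.39), RCI2A (0.40), AT1G73325 (0.43) and AT5G09570 (0.43) followed at larger distances.

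Markers of tissues outside the meristem dome were read in the same libraries. Summed CPM of 12 tapetum and anther markers ran from 1198 to 1352 in the controls and was 1224, 391 and 592 in replicates 1 to 3 labelled VGD1, with all 12 fitted log2 fold changes below 0. Summed CPM of 10 vascular and stem markers ran from 269 to 375 in the controls and from 169 to 276 in the libraries labelled VGD1, with 9 of 9 tested below 0 and the fibre gene NST3 without a count. Summed CPM of 8 leaf photosynthesis markers ran from 13308 to 18120 and from 11698 to 14099, with all 8 below 0. Of these markers 0 were called in the main edgeR fit. With the replicate number as a block, edgeR called 3 of the 9 tested vascular markers lower, against 119 of all 19719 tested genes. At an unadjusted p of 0.05, 2 of 12 tapetum, 6 of 9 vascular and 3 of 8 photosynthesis markers were lower, against 8.36% of all tested genes. DESeq2 called 0, 3 and 2 of these markers lower, against 1.52% of 19335 genes. Replicate 1 labelled VGD1 lay inside the control range for tapetum and had the lowest sum of all 6 libraries for vascular and photosynthesis markers. Replicate 2 lay inside the control range for vascular and photosynthesis markers and had the lowest tapetum sum. Replicate 3 lay below every control in all 3 sums. The part of these markers in the differences of PRR5, PRR9 and ELF4 was not tested, and in bulk RNA fewer cells of a type and less RNA per cell cannot be told apart.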

How the data were processed

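The authors deposited whole-number read counts per locus, 1 table for each of the 6 libraries. Per the file headers, the aligner was RNA STAR, and per the submitters' processing notes TAIR10 and DESeq2 were used. Counting tool, strand setting and annotation version remain not given in the sources used here. Sample titles gave the groups, 3 control and 3 VGD1, and the replicate numbers, and no library was left out.

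Counts were fitted across all genes with edgeR 4.0.16 in R 4.3.3: TMM factors, filterByExpr (minimum count 10, minimum total 15), robust glmQLFit (legacy mode off) and glmQLFTest, two-sided, adjusted by Benjamini-Hochberg over 19719 genes at 0.05. Standard errors and 95% intervals came from that fit. The fit was tested on simulated data. Those counts were drawn from the fit's own dispersions, so they repeat its assumptions about the spread between libraries. DESeq2 1.42.0 and limma 3.58.1 (voom) were alternatives. Names, exon lengths and sequences came from the RefSeq TAIR10.1 genome and annotation; counts were joined to it by locus identifier alone, and the coordinates printed are those of TAIR10.1. Log2 values used for ranges and likeness carry a prior count of 2.

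The genes and lists were chosen with earlier results of these data known. Text names all 9 genes, VGD1, up to 4 called members of each further list or else the 2 with the smallest p, non-overlapping extremes, and the 5 most alike genes. STM, CLV3, CCA1, LHY, ZTL, GRP8, GI, COR27, RVE1, RVE2 and CDF2 fall outside that rule and were named after their values were seen.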

Additional observations from a re-analysis of the deposited data

How the results depend on the processing

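The number of genes called over all genes, 82 with all libraries, was 139 without the filter on low counts, 430 with DESeq2, 45 with limma-voom, 53 with the legacy edgeR dispersion, 51 with thinned libraries, and 4 to 201 with 1 library left out. Of the 9 genes, 2 were called lower, 3 with DESeq2, 1 with thinned libraries (PRR5) and 0 to 2 with 1 library left out. None was called higher in any of the 15 alternatives. Of the further clock lists 2 members were called, 1 with library totals alone and 1 to 3 with 1 library left out. PRR5 was called in 13 of 15 alternatives, PRR9 in 10 and ELF4 in 1 (DESeq2).

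Signs turned only for genes far from the threshold: BOA (log2 0.06) to -0.086 with limma-voom and -0.52 without replicate 1 labelled VGD1 (-0.52 to 0.37 with 1 library left out), PRR3 (-0.09) to 0.087 without control replicate 3 and 0.25 without replicate 3 labelled VGD1 (-0.50 to 0.25), and PRR7 (-0.07) to 0.0022 without replicate 2 labelled VGD1 (-0.16 to 0.0022). The causes were not tested beyond the construction of each fit (fewer libraries, counts or genes).

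In deviations from the group means, same-numbered libraries correlated at -0.010, 0.033 and 0.095 and unlike-numbered ones at -0.092 to 0.059. With 3 libraries a group, these values cannot decide whether the numbers pair libraries. With the replicate number as a block, 194 genes were called, 2 of the 9 genes were lower, and 5 members of the further lists were called. Of these, FKF1, GRP7 and GRP8 were lower, and RVE1 and CDF2 were higher. The lowest counts were 20 for ELF4 and 28 for BOA. Thinning to the shallowest library ended the call on PRR9 (log2 -0.70) and changed no other call among the 9 genes.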
